A study of Mus musculus with 2 samples.

Results

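Fc receptors bind the constant (Fc) part of antibodies, and 5 of their genes were followed here in leukemic promyelocytes: Fcgr3, Fcgr4 and Fcgr1, which encode activating receptors for IgG, Fcgr2b, which encodes the inhibitory IgG receptor, and Fcer1g, which encodes the signalling γ chain. They were chosen by gene symbol, and all 5 of 5 were found among the 32285 genes listed in both libraries. The cells were late promyelocytes, neutrophil precursors of the bone marrow, from leukemic mice whose cells express PLZF/RARA, a fusion of the zinc finger protein PLZF with the retinoic acid receptor alpha. The control group received corn oil with 10% DMSO by intraperitoneal injection, and the treated group received 0.8 to 1 mg of retinoic acid by the same route, both for 7 days. Each group gave 1 single-cell library, called the vehicle and the treated library. The labels speak of a cohort of 3 to 5 mice and do not say how many of them a library holds, how the fusion is driven, or the age of the animals. Cells of both groups carry the fusion, so neither library is a healthy control. The study dealt with the resistance of this leukemia to retinoic acid. Because a group held 1 library, no test was made: every interval below is a 95% interval for counting error only, and differences between mice, sorts and preparations are part of every ratio.

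The activating receptors of mouse myeloid cells, FcγRIII (Fcgr3), FcγRIV (Fcgr4) and the high-affinity FcγRI (Fcgr1), are ligand-binding α chains that need the γ chain of Fcer1g for surface expression and signalling. The γ chain carries an activation motif (ITAM) that Src family kinases phosphorylate and the kinase SYK binds. FcγRIIB (Fcgr2b) needs no γ chain and carries an inhibitory motif (ITIM) that recruits the lipid phosphatase SHIP1 (Inpp5d). During granulocyte development FcγRII/III marks committed progenitors, while FcγRIV is a receptor of mature neutrophils and monocytes. The sort itself selected cells with FcγR protein on the surface, besides CD45.2, c-Kit and Gr1, and against CD34. The labels name no antibody clone; the reagents usually employed for this gate bind the products of both Fcgr3 and Fcgr2b. The levels of these genes are therefore those of cells already chosen for the protein.

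After filtering, the libraries held 5476 vehicle and 7140 treated cells, with 99107718 and 110088247 UMIs (unique molecular identifiers, each marking 1 captured RNA molecule) and medians of 16750 and 14604 UMIs per cell. The libraries shared 11 cell barcodes. The gate's transcripts were only partly those the sort names. Cd34 stood at 53.8 CPM (counts per 1000000 UMIs) in vehicle cells and 0.118 CPM in treated cells. Ly6g, one of the Gr1 antigens, was at 35.6 and 281 CPM. Other genes of the gate differed less: Ly6c2, also a Gr1 antigen, was at 4765 and 4326 CPM. Ptprc, the CD45 gene, was at 99.6 and 102 CPM and Kit at 19.3 and 16.7 CPM. Of the primary granule genes that define promyelocytes, 6 were listed and summed to 8291 CPM in vehicle and 18863 CPM in treated cells. Elane was at 62.8 and 7663 CPM, Prtn3 at 246 and 2819, Ms4a3 at 850 and 2087, Ctsg at 6444 and 5979 and Prss57 at 377 and 315, whereas Mpo, the gene of myeloperoxidase, had 30857 UMIs in the vehicle and 55 in the treated library. The 20 genes of a neutrophil maturation list (secondary granule and later genes such as Camp, Ngp and S100a8) summed to 2573 CPM in vehicle and 64696 CPM in treated cells. Not every member was higher in treated cells: Anxa1 was at 441 and 55.3 CPM and Cxcr2 at 16.6 and 6.82 CPM. The summed level of 6 mast cell and basophil markers was 125 and 63.1 CPM, that of 6 eosinophil markers 114 and 30.5 CPM, and that of 8 monocyte and macrophage markers 74.9 and 6.30 CPM. Of 5 T and NK cell markers, Nkg7 made up nearly all of a sum of 1284 and 575 CPM, and Cd3e had 0 UMIs in both libraries. A megakaryocyte list of 4 genes, carried by Itga2b, summed to 29.1 and 1.08 CPM. Sums of 5 B cell and 7 erythroid markers were 2.56 and 2.32 CPM and 4.20 and 0.781 CPM. The first 3 lists were each carried by 1 or a few genes (Mcpt8; Prg2 and Epx; Adgre1), with 3, 1 and 1 members at 0 UMIs in the vehicle and 4, 1 and 0 in the treated library. Their part in the Fc receptor results was not tested beyond the cell classes given below.

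Of the activating receptors, Fcgr3 carried nearly all of the signal. Its level was 53.5 CPM in vehicle cells (5305 UMIs, interval 52.1 to 55.0) and 64.8 CPM in treated cells (7137 UMIs, 63.3 to 66.4). The treated library was thus 1.21-fold higher (log2 ratio 0.28, interval 0.22 to 0.33), a difference larger than counting error and small beside the 2-fold limit used for the background. When each cell was thinned at random to 5000 UMIs, so that depth could not set detection, 22.6% of 5282 vehicle cells and 27.9% of 6659 treated cells had an Fcgr3 UMI, a difference of 5.21 points (3.65 to 6.77). Without thinning the shares were 46.3% and 54.9%. Cells with at least 3 Fcgr3 UMIs went the other way, at 2.16% of vehicle and 1.56% of treated cells. The variance of the thinned Fcgr3 count was 1.58 times its mean over vehicle cells and 1.26 times over treated cells. Fcgr3 was therefore found in fewer vehicle cells, and was spread less evenly over them.

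Fcgr4 was scarce in both libraries and, over all cells, much higher after retinoic acid. It had 7 UMIs in the vehicle (0.0706 CPM, 0.0284 to 0.146) and 77 UMIs in the treated library (0.699 CPM, 0.552 to 0.874). The log2 ratio was 3.22 (2.20 to 4.67), or 9.30-fold (4.58 to 25.5). At 5000 UMIs per cell, 2 vehicle cells (0.0379%) and 31 treated cells (0.466%, 0.317 to 0.660%) had an Fcgr4 UMI. Fcgr1 was all but absent: 0 UMIs in the vehicle, where a limit of 3 UMIs is 0.0303 CPM, and 1 UMI in the treated library. No ratio can be given for Fcgr1, since both values lie at or under that limit of 3 UMIs.

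The inhibitory receptor gene Fcgr2b stood above Fcgr3 in both libraries and moved the opposite way. Vehicle cells had 123 CPM (12196 UMIs, 121 to 125) and treated cells 88.9 CPM (9787 UMIs, 87.1 to 90.7), which is 1.38-fold lower (log2 ratio −0.47, −0.51 to −0.43). Thinned cells with an Fcgr2b UMI made up 44.9% of the vehicle and 36.6% of the treated library, a difference of −8.30 points. Fcer1g, the γ chain gene, was the most abundant member, at 1328 CPM (1321 to 1335) without and 879 CPM (873 to 884) with retinoic acid. It was 1.51-fold lower after retinoic acid (log2 ratio −0.60, −0.61 to −0.58). Nearly every thinned cell had an Fcer1g UMI, 99.6% of vehicle and 97.4% of treated cells, and the mean number per cell was 6.99 and 4.68. CPM in this 3′ assay counts molecules and was not divided by gene length, so the order of the genes is an order of captured molecules.

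Of the 5 members, Fcgr3, Fcgr2b and Fcer1g reached 20 CPM in either library, and 0 of these 3 differed at least 2-fold. Over all 5548 genes of at least 20 CPM, 8.07% did, with 3.03% higher and 5.05% lower in the treated library. Fcgr4 lay under that level. Scaling by TMM, which discounts the abundant granule genes, adds 0.08 to each log2 ratio and turned the direction of none of the 4 members with a ratio. No cell class that should lack Fc receptors was large enough to measure free RNA in the droplets. Barcodes of under 1000 UMIs carried 3 and 7 Fcgr3 UMIs (31.1 CPM, 6.42 to 91.0, and 71.6 CPM, 28.8 to 148), 9 and 9 Fcgr2b UMIs, 27 and 47 Fcer1g UMIs (280 and 481 CPM) and no Fcgr4 UMI. The part of free RNA in the shares of positive cells was not tested.

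**Figure D1:**
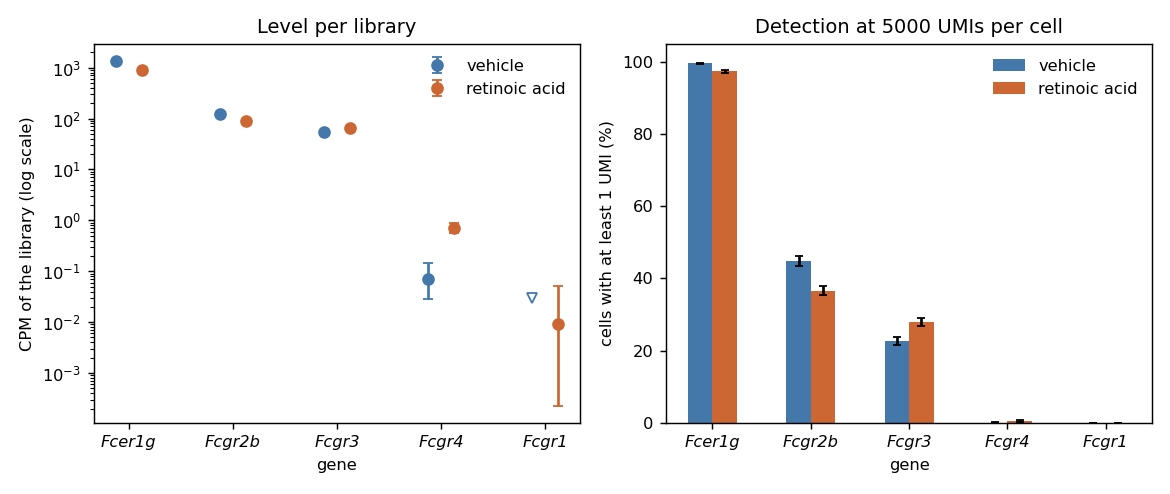
Left, level of each gene in CPM on a log axis, 1 point per library with its 95% Poisson interval; the open triangle is the level of 3 UMIs (0.0303 CPM), the limit used for Fcgr1, which had 0 vehicle UMIs. Right, percent of cells with at least 1 UMI after thinning to 5000 UMIs, with exact binomial intervals; Fcgr2b and Fcer1g are lower and Fcgr3 and Fcgr4 higher in the treated library.

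The balance between the activating and the inhibitory α chain was taken as the Fcgr3 share of the summed Fcgr3 and Fcgr2b UMIs, in which total depth cancels. It was 30.3% in the vehicle (29.6 to 31.0%) and 42.2% in the treated library (41.4 to 42.9%), 11.9 points higher (10.8 to 12.9). The extracellular exons of these genes are much alike, and how reads that match both were assigned is not given in the sources used here. In the same cells, an Fcgr3 UMI was found in 24.7% of vehicle cells with an Fcgr2b UMI and in 20.98% of those without, a difference of 3.71 points (1.43 to 5.99). In the treated library the shares were 30.3% and 26.5% (3.84 points, 1.59 to 6.10). At least 1 of the Fcgr genes was detected in 56.5% of vehicle and 53.5% of treated cells at this depth. Of the 31 treated cells with Fcgr4, 21 (67.7%, 48.6 to 83.3%) also had Fcgr3, against 27.7% of the cells without Fcgr4. All 31 had Fcer1g, as did 97.4% of the cells without Fcgr4. Of the 31 cells, 26 lay in the treated group of the highest granule share, described below. In that group 41.9% of the thinned cells had an Fcgr3 UMI.

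All members but Fcgr1 lie within 275749 bases of chromosome 1 (GRCm38, GENCODE M21). Fcgr2b (ENSMUSG00000026656) spans 170958617 to 170976547 on the minus strand, Fcgr4 (ENSMUSG00000059089) 171018920 to 171029761 on the plus strand, Fcgr3 (ENSMUSG00000059498) 171051174 to 171064935 and Fcer1g (ENSMUSG00000058715) 171229572 to 171234365, both on the minus strand. Fcgr1 (ENSMUSG00000015947) lies on chromosome 3, 96282909 to 96293969. The inner members Fcgr4 and Fcgr3 were higher and the outer members Fcgr2b and Fcer1g lower after retinoic acid. An antisense gene, Gm38204, overlaps Fcgr2b; it had 3 and 1 UMIs, and whether the counting used strand is not given.

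The 250 bases before the RefSeq start sites (GRCm38.p6) are shown for 3 members. These stood at least 1.8-fold higher at high granule content in the treated library, described next. Fcer1g just passed this limit, at 1.80-fold, and lay under the 2-fold limit used for the background. Over the 8 granule groups of both libraries it had r = 0.23 with Fcgr3. Capitals mark GAGGAA, the core of many sites of the myeloid factor PU.1, here read as TTCCTC on the opposite strand. It was searched on both strands.
Fcgr3, chr1:171059404-171059653, minus strand: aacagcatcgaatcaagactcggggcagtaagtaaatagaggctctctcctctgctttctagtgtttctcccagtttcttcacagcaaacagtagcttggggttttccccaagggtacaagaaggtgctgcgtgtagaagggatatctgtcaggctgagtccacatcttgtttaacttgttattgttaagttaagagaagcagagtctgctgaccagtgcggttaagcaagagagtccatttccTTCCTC
Fcgr4, chr1:171018676-171018925, plus strand: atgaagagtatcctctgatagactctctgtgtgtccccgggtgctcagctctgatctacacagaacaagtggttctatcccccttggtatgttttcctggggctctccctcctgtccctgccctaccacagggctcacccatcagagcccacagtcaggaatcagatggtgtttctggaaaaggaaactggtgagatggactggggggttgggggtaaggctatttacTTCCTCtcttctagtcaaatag
Fcer1g, chr1:171234350-171234599, minus strand: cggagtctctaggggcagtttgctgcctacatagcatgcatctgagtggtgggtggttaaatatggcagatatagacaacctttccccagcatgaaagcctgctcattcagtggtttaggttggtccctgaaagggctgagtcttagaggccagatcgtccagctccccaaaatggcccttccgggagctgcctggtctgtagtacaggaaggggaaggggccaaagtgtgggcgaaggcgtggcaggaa
The match began 6 bases before the start site in Fcgr3 and 22 bases before it in Fcgr4. Fcgr1 had 1 match, 55 bases before its start, and Fcgr2b and Fcer1g had none in this window. Of 32851 RefSeq windows of this length, 23.3% held the motif, so a match is common and is given as a description of the sequence. The Fcgr3 window lies inside the gene as GENCODE draws it, since a longer transcript starts farther upstream, and a second RefSeq start of Fcgr3 has the same match 15 bases before it. The Fcgr2b window consists largely of annotated exons of the same gene and is not shown.

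Along granule content, Fcgr3 and Fcgr4 had the widest ranges of the 4 members measured, in the treated library. Cells of each library were ordered by their granule share, the percent of their UMIs in the secondary granule genes Camp, Ngp, Ltf and Lcn2, and cut into 4 groups of near-equal size. In the treated library Fcgr3 stood at 50.5, 55.2, 61.1 and 109.9 CPM in groups 1 to 4, of which group 4 had the most granule transcripts. The first 3 groups were close to each other and the fourth stood apart, with a log2 ratio of group 4 to group 1 of 1.12 (1.03 to 1.22), or 2.18-fold. Fcgr4 had 4, 6, 17 and 50 UMIs in these groups (0.125, 0.196, 0.595 and 2.63 CPM), a log2 ratio of 4.24 (2.95 to 6.32). Of its 77 UMIs, 50 were therefore in the group of the highest granule share. Fcer1g was at 699, 788, 925 and 1259 CPM, higher in each group than in the one before, with a log2 ratio of 0.85 (0.82 to 0.88). Fcgr2b was at 80.5, 88.4, 90.0 and 102 CPM, a log2 ratio of 0.34 (0.26 to 0.43). Of the 3 members of at least 20 CPM only Fcgr3 reached 2-fold; over 5523 genes of that level 14.9% did, 4.49% upward, and the median log2 ratio of all genes was −0.39.

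The denominator and the depth both moved with the granule share. The maturation genes took 0.99% of the UMIs in the lowest and 21.9% in the highest retinoic acid group, and with them left out of the total the log2 ratios became 1.46 for Fcgr3, 4.58 for Fcgr4, 1.19 for Fcer1g and 0.69 for Fcgr2b. The highest group was also shallower, with a median of 10028 UMIs per cell against 17368 in the lowest. Counted per cell rather than in CPM, Fcgr3 was at 0.903, 0.947, 0.979 and 1.17 UMIs, Fcer1g at 12.5, 13.5, 14.8 and 13.4, and Fcgr2b at 1.44, 1.51, 1.44 and 1.09. Thus Fcgr3 and Fcgr4 were highest in the fourth group on both scales, while Fcgr2b was highest there in CPM and lowest there per cell. Fewer RNA molecules per cell and weaker capture cannot be told apart here.

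In the vehicle the same order gave smaller ratios. Fcgr3 was at 47.7, 49.2, 55.0 and 62.4 CPM (log2 ratio 0.39, 0.27 to 0.50), Fcgr2b at 110, 118, 125 and 140 CPM (0.35) and Fcer1g at 1253, 1275, 1348 and 1439 CPM (0.20). None of these 3 reached 2-fold, as did 0.714% of all genes. The granule share itself was low in the vehicle, with a median of 0.0243% of a cell's UMIs against 1.87% in the treated library, so the groups span different ranges. All 7 vehicle Fcgr4 UMIs lay in the highest group. The vehicle ratio of Fcgr3 depended on how cells were ordered: it was 1.65 when the 20-gene maturation list set the order and 0.04 between the outermost of 10 groups.

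**Figure D2:**
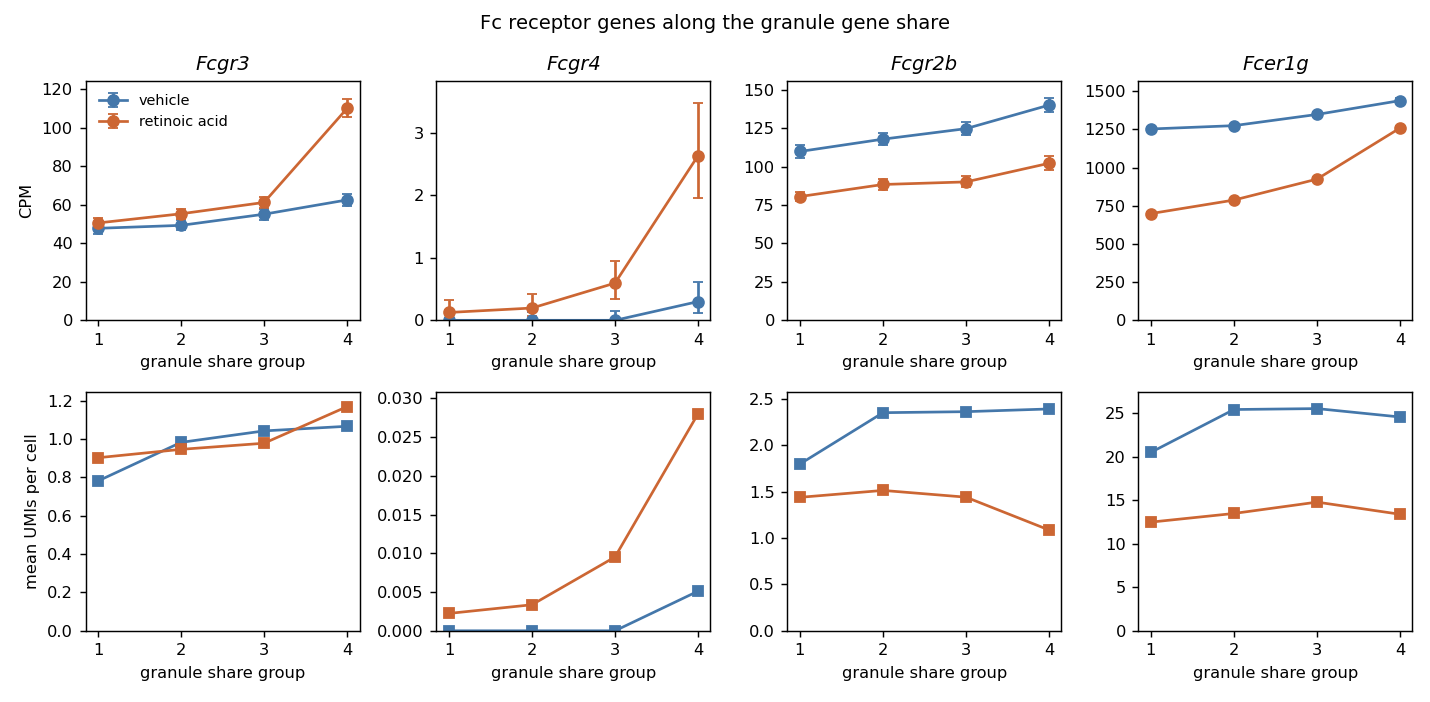
Levels in 4 groups of cells of rising granule share (1 lowest, 4 highest) within each library; top, CPM with 95% Poisson intervals, bottom, mean UMIs per cell. Fcgr3 and Fcgr4 are highest in group 4 of the treated library in both rows, while Fcgr2b there is highest in CPM and lowest per cell.

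The Fcgr3 share of the summed Fcgr3 and Fcgr2b UMIs, which does not depend on the total, was 38.5, 38.5, 40.4 and 51.8% in the 4 treated groups. The highest group lay 13.3 points above the lowest (11.1 to 15.4). In the vehicle it was 30.3, 29.5, 30.6 and 30.8%, a difference of 0.56 points (−1.46 to 2.56). Of these 8 groups, only the highest treated group had more Fcgr3 than Fcgr2b UMIs. Treated G1 cells as a whole had 2120 Fcgr3 and 2093 Fcgr2b UMIs. The 683 of them in the highest granule group had 1021 and 640. Treated G1 cells of groups 1 to 3 had more Fcgr2b, at 362 and 515, 347 and 476, and 390 and 462 UMIs. The 18 vehicle cells with a granule share above 10% had 32 and 22 UMIs, with overlapping intervals (146 to 301 and 91.8 to 222 CPM).

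**Figure D3:**
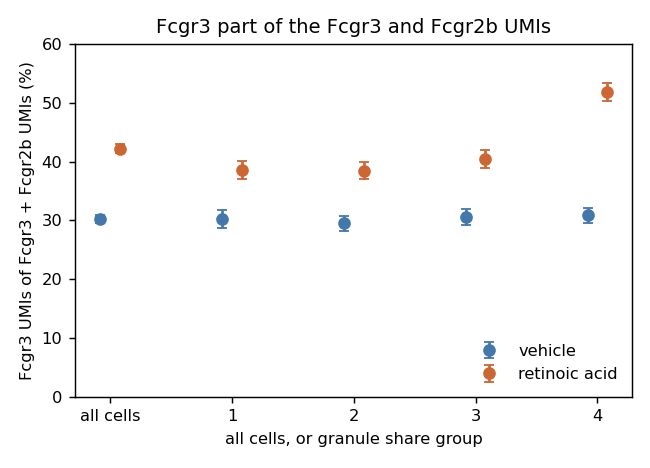
Fcgr3 UMIs as a percent of Fcgr3 plus Fcgr2b UMIs in all cells and in the 4 granule share groups of each library, with exact 95% binomial intervals. The vehicle groups stay between 29.5 and 30.8%, and the treated groups run from 38.5 to 51.8%.

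Cells of like granule content were then set side by side across the libraries, in fixed classes of the granule share with bounds of 0.1, 1, 5 and 10%. The vehicle cells numbered 4703, 654, 81, 20 and 18 in these classes and the treated cells 165, 2434, 2388, 960 and 1193. Fcgr3 was at 52.1, 59.7, 69.8, 118 and 213 CPM in the vehicle and at 45.3, 52.6, 57.0, 78.2 and 128 CPM in the treated library. Within each class it was thus lower after retinoic acid, with log2 ratios of −0.20, −0.18, −0.30, −0.62 and −0.76, although over all cells it was higher. The classes were not split by cell cycle phase, in which the libraries differed and with which Fcgr3 varied, as given below. Within each phase, over all granule shares, Fcgr3 was higher in the treated library. Only the intervals of the second class (−0.31 to −0.05) and the fifth (−1.24 to −0.19) left out 0, and with the TMM shift of 0.08 only that of the fifth. Even in the class above 10% the median granule share was 12.2% in the vehicle and 14.3% in the treated library. Fcer1g was lower after retinoic acid in all 5 classes, by log2 ratios of −0.99 to −0.75, and every interval left out 0. Fcgr2b was lower in all 5, by −1.04 to −0.43, and in the class above 10% its interval held 0. Fcgr4 had too few vehicle UMIs for a comparison in any class, so its higher level over all cells could not be measured at like granule share. Above 10% it had 1 UMI in 18 vehicle cells (6.66 CPM, 0.169 to 37.1). The 1193 treated cells had 42 UMIs (3.66 CPM, 2.63 to 4.94). From 5 to 10% the vehicle had 3 UMIs (15.4 CPM, 3.17 to 44.9) and the treated library 13 (1.00 CPM, 0.535 to 1.72). All 3 vehicle UMIs lay in 1 cell, which the interval does not take into account. From 1 to 5% the counts were 0 and 15 UMIs, and from 0.1 to 1% 2 and 7 UMIs (0.181 and 0.162 CPM).

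**Figure D4:**
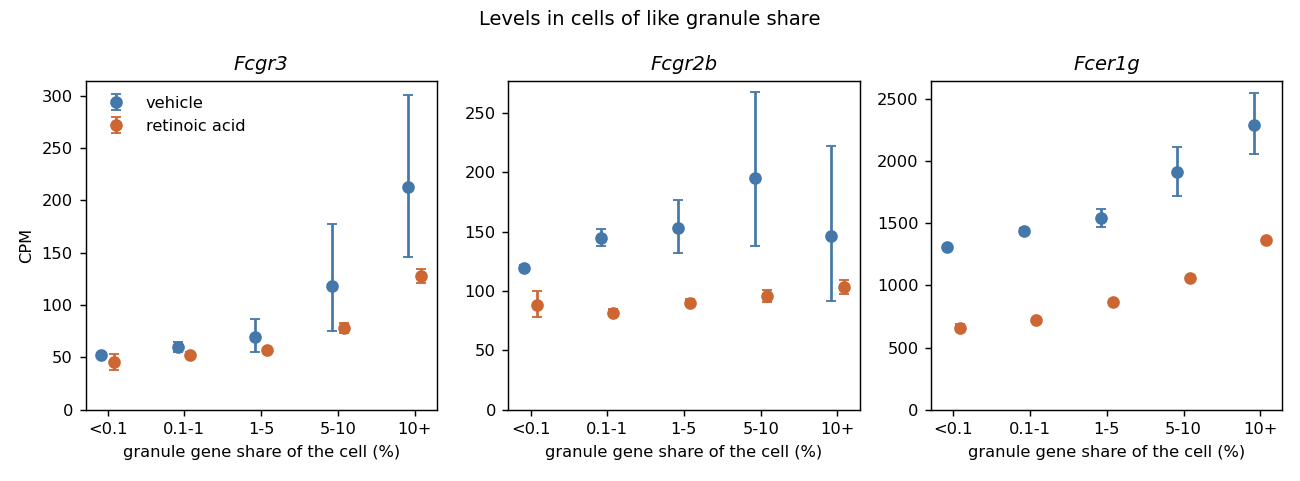
CPM of Fcgr3, Fcgr2b and Fcer1g in cells of each library within fixed classes of the granule share, with 95% Poisson intervals. Retinoic acid points lie under the vehicle points in each class; vehicle intervals are wide above 5%, where 20 and 18 cells were found.

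Fcgr3 also varied with cell cycle phase. In the vehicle it was at 83.7 CPM in G1 cells, 35.3 in S and 31.6 in G2/M, and in the treated library at 109, 54.3 and 54.0 CPM. The log2 ratio of G1 to G2/M was 1.40 (1.31 to 1.49) and 1.02 (0.94 to 1.10). Fcgr3 was the only one of the 3 members of at least 20 CPM past 2-fold in either library; over all genes 7.87% of the vehicle and 6.57% of the retinoic acid comparison were, 1.95% and 1.70% upward. Fcgr2b was at 151, 131 and 96.9 CPM in the vehicle and 108, 93.7 and 79.6 CPM in the treated library. Fcer1g varied least in CPM, at 1516, 1230 and 1191 CPM and at 1068, 872 and 814 CPM. Depth moved with phase, with medians of 13770 and 23672 UMIs in G1 and G2/M vehicle cells and 10964 and 18530 in treated cells. Per cell, Fcgr3 was still higher in G1 than in G2/M, at 1.20 and 0.784 UMIs (vehicle) and 1.26 and 1.06 (treated). Fcgr2b was lower per cell in G1, at 2.17 and 2.40 UMIs (vehicle) and 1.24 and 1.56 (treated). So was Fcer1g, at 21.8 and 29.5 UMIs and at 12.3 and 16.0. Within every phase, over all granule shares, Fcgr3 was higher, and Fcgr2b and Fcer1g lower, in the treated library. The libraries were not compared within phase and fixed granule class at once. The libraries differ in their phases: 2746 of 5282 vehicle cells and 1686 of 6659 treated cells were called G1. Phase was called from S and G2/M gene scores alone and is a score, not a measurement of cycling.

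The granule pattern of Fcgr3 was present within each phase of the treated library. Its log2 ratio between granule groups 4 and 1 was 1.10 (0.92 to 1.27) in G1, 0.72 (0.52 to 0.93) in S and 0.76 (0.60 to 0.92) in G2/M. Fcgr3 reached 163 CPM in the 683 G1 cells of the highest group. Fcgr4 had 35 of its G1 UMIs in these cells and 4 in the other 3 groups together. Fcer1g had ratios of 1.01, 0.73 and 0.64. Fcgr2b had ratios of −0.09 (−0.25 to 0.09), 0.28 and 0.39. The sign of the G1 value depended on the total: it was 0.38 with the maturation genes left out. In the vehicle, Fcgr3 had ratios of 0.18 (0.04 to 0.32) in G1, 0.85 in S and 0.84 in G2/M.

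Within the vehicle library Fcgr3 differed between cells that carry different granule enzyme genes. Cells with at least 3 thinned UMIs of Cpa3, the carboxypeptidase gene of mast cells and basophils, and fewer of Mpo numbered 1815. Cells with the reverse numbered 557. Fcgr3 was at 75.6 CPM (72.6 to 78.7) in the Cpa3 cells and 25.6 CPM (22.8 to 28.6) in the Mpo cells, 2.95-fold apart (log2 ratio 1.56, 1.39 to 1.74). An Fcgr3 UMI was found in 29.6% and 11.5% of the thinned cells. Fcgr2b was at 139 and 102 CPM (log2 ratio 0.44) and Fcer1g at 1454 and 1170 CPM (0.31). Again Fcgr3 alone of the 3 passed 2-fold, as did 2.97% of all genes. Depth moved with this contrast, with medians of 15330 UMIs in the Cpa3 cells and 20639 in the Mpo cells. Per cell Fcgr3 was at 1.28 and 0.560 UMIs, Fcgr2b at 2.35 and 2.24 and Fcer1g at 24.6 and 25.6. Phase moved with this contrast too: 73.2% of the Cpa3 cells and 26.9% of the Mpo cells were called G1. Within 1 phase at a time, a split added after the data were seen, the Fcgr3 ratio was 1.46 in G1, 0.84 in S and 0.77 in G2/M. These classes are ranges of a count, not cell types; 406 vehicle cells lay just under the Cpa3 limit with 2 UMIs. In the treated library Mpo had 55 UMIs in all, and the split was not made.

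Fcgr3 was also high in vehicle cells with at least 3 UMIs over any of 3 marker lists of other cell types. It was at 130 CPM in the 298 cells of the mast cell and basophil list against 48.9 CPM in the rest, at 145 against 50.8 CPM for the 167 cells of the eosinophil list, and at 136 against 51.7 CPM for the 96 cells of the monocyte and macrophage list. The log2 ratios were 1.41, 1.51 and 1.40, while Fcgr2b had 0.28, 0.31 and 0.19 and Fcer1g 0.32, 0.31 and 0.31. Fcgr3 passed 2-fold in all 3 contrasts, as did 2.77%, 3.79% and 5.58% of all genes. The last list rested on Adgre1: Csf1r, which defines monocytes and macrophages, had 14 UMIs in the whole vehicle library. These contrasts were not split by phase. The T and NK cell list, carried by Nkg7, went the other way. It held 4707 of 5282 vehicle cells, with Fcgr3 at 52.3 CPM against 58.8 CPM in the rest. The 23 vehicle cells of the megakaryocyte list had 94.7 against 52.8 CPM. In the treated library Fcgr3 was at 49.0 CPM in the 76 cells of the mast cell and basophil list against 64.2 CPM in the rest, and at 54.3 against 64.0 CPM for the 24 cells of the eosinophil list. The treated log2 ratios were −0.38 (−0.75 to −0.05) and −0.19 (−1.05 to 0.46), the latter from 16 Fcgr3 UMIs. So the excess of Fcgr3 in cells of the mast cell and basophil and the eosinophil lists was measured in the vehicle and not in the treated library. The difference between the libraries was not tested.

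**Figure D5:**
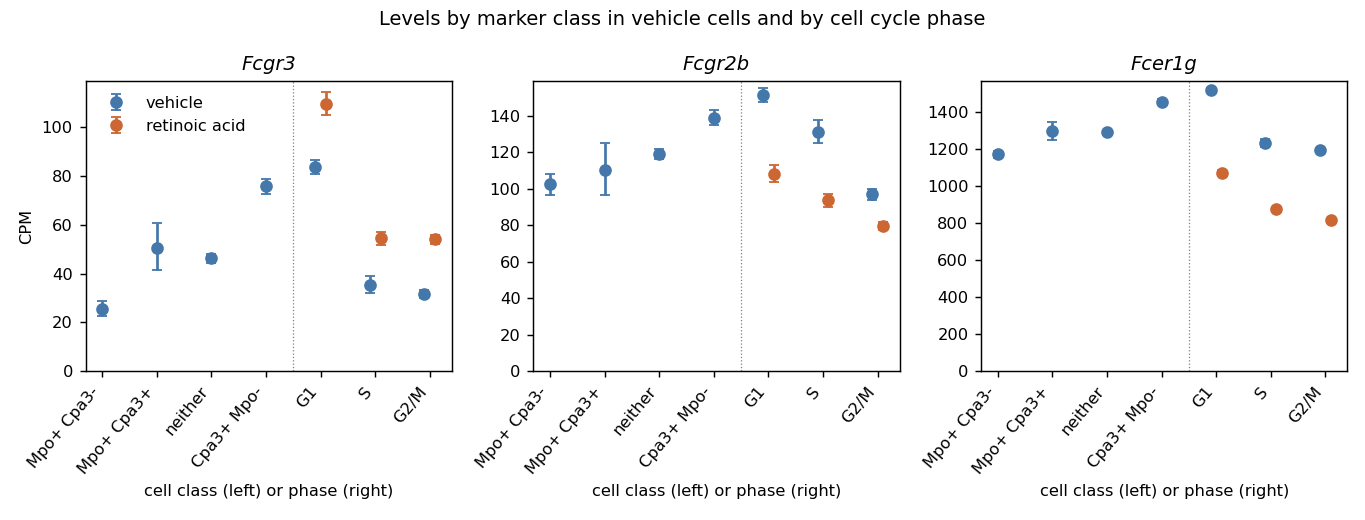
CPM of Fcgr3, Fcgr2b and Fcer1g in vehicle cells classed by Cpa3 and Mpo (left of the dotted line) and in cells of each phase of both libraries (right), with 95% Poisson intervals. Fcgr3 is lowest in the Mpo cells (25.6 CPM) and highest in G1 cells of both libraries (83.7 and 109 CPM).

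The partners and signalling genes of these receptors were followed with 4 lists of 65 genes, of which 64 were found. The 51 with at least 10 UMIs over both libraries had a median log2 ratio of 0.06, against −0.08 for all genes of that count. Of the 33 at 20 CPM or more, 3 were at least 2-fold higher and 4 at least 2-fold lower, beside the 3.03% and 5.05% of all genes given above. Among other Fc receptors, Fcgrt, the neonatal Fc receptor that recycles IgG, was lower, at 39.5 and 12.3 CPM (log2 ratio −1.68, −1.77 to −1.59), and Trim21, a cytosolic antibody receptor, was at 4.96 and 8.83 CPM. Fcer1a, the IgE-binding α chain, had 0 UMIs in both libraries, and Ms4a2, the β chain of the same receptor, was at 1.45 and 2.05 CPM; these were named after their values were seen.

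The other ITAM adaptor of myeloid cells did not move with Fcer1g. Tyrobp, which encodes DAP12, was at 965 CPM without and 984 CPM with retinoic acid (log2 ratio 0.03, 0.02 to 0.04), and Hcst, which encodes DAP10, at 151 and 158 CPM. In the vehicle Fcer1g thus had more molecules than Tyrobp, and in the treated library fewer. Trem3, a receptor that pairs with DAP12, was at 52.9 and 155 CPM (1.55). Clec4e, the receptor Mincle that pairs with the γ chain, was at 122 and 56.0 CPM (−1.12). Of the signalling genes, Rac2, a small GTPase that activates the neutrophil oxidase, was at 513 and 1067 CPM (1.06), and Grb2, an adaptor, at 141 and 106 CPM (−0.41). Lat2, an adaptor phosphorylated downstream of Fc receptors, was at 118 and 41.7 CPM (−1.50). Syk, the kinase bound by the phosphorylated ITAM, was at 21.2 and 33.4 CPM (0.66), and was named after its value was seen.

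On the inhibitory side, Ptpn6, which encodes the phosphatase SHP-1, was at 284 CPM without and 139 CPM with retinoic acid (log2 ratio −1.03, −1.06 to −1.01). With TMM scaling its ratio lay within 2-fold. Clec12a, an inhibitory C-type lectin receptor, was at 211 and 495 CPM (1.23). Inpp5d, which encodes the SHIP1 that FcγRIIB recruits, was at 38.1 and 29.8 CPM (−0.35), and was named after its value was seen. Genes of these lists thus lay on both sides of 0, and the direction of Fcgr2b and Fcer1g was not that of the lists' medians.

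Over the 8 granule groups of both libraries, the genes whose log2(CPM + 1) followed each member most closely were taken from 5548 candidates. For Fcgr3 they were Arpc5 (Pearson r 0.99), Dhrs7, Ninj1, Rassf5 and Ranbp9 (0.98 each). For Fcgr2b they were Myl12b (0.98), Trf, Cd33, Pkm and Cstb (at least 0.97), and for Fcer1g Dok2, an adaptor of the inhibitory list (1.00 after rounding), Ptms, Capg, Adam8 and Ier3 (at least 0.99). Among the members, Fcgr2b and Fcer1g had r = 0.93, Fcgr3 and Fcgr2b 0.01 and Fcgr3 and Fcer1g 0.23. These are descriptions over 8 points that share 2 libraries and their totals, and the genes were picked for the value.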

How the data were processed

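Polyadenylated RNA of sorted single cells was captured with the 10x Genomics 3′ kit labelled v2, per the labels' protocols. The authors deposited raw UMI counts per gene and cell, with gene and barcode lists; per the file headers, Cell Ranger 4.0.0 made the matrices. The submitters' processing notes name mm10 and GRCm38.p4; how cells were told from empty droplets is not given in the sources used here. Barcodes were kept with at least 1000 UMIs, 500 genes and no more than 10% mitochondrial UMIs; 310 barcodes of the vehicle and 276 of the treated library failed. Scrublet called 2 and 5 cells doublets (0.0365% and 0.0700%), which was taken as a failed call, so none were removed.

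Counts were summed per library or cell class and divided by all counts of those cells to give CPM. Ratios had 0.5 counts added. Intervals are exact Poisson for sums, exact conditional binomial for ratios, Clopper-Pearson for shares and Newcombe for differences of shares. UMIs counted from 1 library are not independent replicates. Thinning to 5000 UMIs left out 194 and 481 shallower cells. Phases were called with scanpy 1.11.5 on thinned cells from 43 S and 54 G2/M genes, and TMM factors came from edgeR 4.0.16, with no test. Coordinates are from GENCODE M21, which matched 32158 of 32285 identifiers. The calculations were tested on simulated counts.

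The 5 genes, the gene lists and the rules were chosen with earlier results of these data known. The rule for named genes takes the 5 members, pathway list genes of at least 20 CPM that differed at least 2-fold, the 2 most abundant genes of each list, and the 5 genes most like each member over the 8 granule groups.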

Additional observations from a re-analysis of the deposited data

How the results depend on the processing

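Of 99 alternative values, 58 lay within the reported counting interval (for counts of genes, within 1.5 times), 40 lay outside it without a change of sign and 1 turned. The turned value is the difference in the share of Fcgr3-positive cells, 5.21 points with at least 1 UMI and −0.32 points with at least 2 UMIs. TMM scaling gave log2 ratios of 0.36 for Fcgr3, −0.39 for Fcgr2b and −0.52 for Fcer1g, and a total without the maturation genes gave 0.37, −0.38 and −0.50. Equal weight for every cell gave 0.22 for Fcgr3 and −0.56 for Fcer1g. Without thinning the differences in positive cells were 8.53 points for Fcgr3, 0.945 for Fcgr4, −12.1 for Fcgr2b and −0.835 for Fcer1g. At 3000 UMIs per cell they were 0.216 for Fcgr4 and −5.99 for Fcer1g, and with at least 2 UMIs 0.0111 for Fcgr4, −5.32 for Fcgr2b and −7.54 for Fcer1g; detection depends on depth by construction. In the treated library, the log2 ratio between granule groups 4 and 1 with that total was 1.46 for Fcgr3, 0.69 for Fcgr2b and 1.19 for Fcer1g, and between the outermost of 10 groups 1.42 for Fcgr3 and 1.10 for Fcer1g. Genes at least 2-fold apart numbered 448 at 20 CPM, 923 at 5 CPM, 133 at 100 CPM and 6081 with no limit. This count can only grow as the limit falls, and the part of counting noise in it was not tested. Depth limits Fcgr4 and Fcgr1 most, with 77 and 1 UMIs in the treated library. No paired analysis was possible because there was 1 library per group.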
